A study of Oryctolagus cuniculus with 12 samples.

Results

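Genes that mark T cells or carry their signals were followed in rabbit conjunctiva after trabeculectomy, a glaucoma operation in which aqueous humor leaves the eye below a flap of sclera and collects in a conjunctival bleb. The 9 genes were chosen by name: CD3D, CD3E, CD3G, CD2, CD5, LCK, ZAP70, IL7R, and CD28. Of the 9 names, 8 were found as row names among 20566 genes. ZAP70 was found only by its gene ID, under a placeholder name that the table describes as tyrosine-protein kinase ZAP-70, so its values are given beside the others and it is left out of the counts over the 8 genes.

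RNA was sequenced from 12 libraries, 3 in each of 4 groups. The TL3h, TL3d, and TL14d groups held conjunctiva with the filtration bleb from the right eye, taken after trabeculectomy with mitomycin C, at 3 hours, at 3 days, and at 14 days. Mitomycin C is a drug that crosslinks DNA. The control group held conjunctiva of left eyes, which had no operation. All rabbits were female Japanese White animals of 12 to 14 weeks. The operated eyes also received betamethasone, a glucocorticoid, by conjunctival injection and an erythromycin and colistin ointment at the end of surgery, so the effects of surgery, mitomycin C, and the steroid cannot be told apart. Which control eye belonged to which rabbit, and when the control tissue was taken, was not given in the sources used here.

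T cells recognize antigen with a receptor whose signal is carried into the cell by the CD3 chains. The kinase LCK phosphorylates these chains, and ZAP70 docks on them and passes the signal on, while CD28 adds a costimulatory signal and CD5 dampens the response. CD2 is an adhesion receptor of T and NK cells, and IL7R binds IL7, the cytokine that keeps resting T cells alive; IL7R also pairs with CRLF2 as the receptor for TSLP, and other lymphoid cells carry it. The conjunctiva holds resident T cells within and below its epithelium.

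Total counts ranged from 27111348 to 38591425 per library, and levels are given as CPM, read counts scaled to a common library size, after TMM normalization. A level at 0 would allow up to 3 counts, or 0.0712 to 0.124 CPM, counting error alone considered. TMM factors were lower at 3 hours (0.77 to 0.78) than in the other 9 libraries (1.03 to 1.13). Without TMM, the 3-hour log2 fold changes of all genes had a median of -0.47 rather than 0.02, and the share of calls that were higher moved from 51% to 25%. The summed level of 8 markers of conjunctival epithelium was 6100 to 13300 CPM in the controls and 5460 to 9800 CPM at 3 hours. At 3 hours 1 of the 8 was called higher (EPCAM, log2 fold change 1.0, edgeR q = 0.000884) and 1 lower (KRT13, -1.63, q = 0.0393; without control replicate 1, q = 0.137). All 9 T cell genes passed the filter on low counts, with 6 to 1055 counts per library.

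The CD3 genes lay next to each other on 1 unplaced piece of the OryCun2.0 assembly. On the joined sequence of unplaced pieces, CD3E (gene ID 100008616) ran from 254546115 to 254560879 on the plus strand, CD3D (100356153) from 254573444 to 254574934 on the minus strand, and CD3G (100352809) from 254579383 to 254592248 on the plus strand, so the annotated genes did not overlap. CD5 (100008958, 118908265 to 118931022) and LCK (100349102, 56994218 to 57020094) were also on unplaced sequence, both on the minus strand. CD2 (100348754) was on chromosome 13 from 47552053 to 47565013 and ZAP70 (100342021) on chromosome 2 from 94410004 to 94435693, both on the minus strand. IL7R (100343726) was on chromosome 11 from 57148921 to 57177890 and CD28 (100008998) on chromosome 7 from 144364607 to 144393807, both on the plus strand.

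In the bleb, IL7R was higher 3 hours after surgery while CD3D was lower, and the other 6 genes found by name did not pass the threshold. Neither call held without control replicate 1 or without control replicate 2, and CD3D, whose 3-hour and control libraries overlapped, passed in 5 of 19 alternative settings. IL7R, the receptor for IL7, rose 7.26-fold (2.86 on the log2 scale, and 3.54 without control replicate 3, the highest control), and CD3D, a signalling chain of the T cell receptor, fell by 1.38 on the log2 scale. Of all genes tested, 45.4% were called at 3 hours. None of the 8 genes passed the threshold at 3 days or 14 days, beside 17.6% and 0% of all genes. In whole tissue, fewer T cells, less RNA per T cell, and a larger share of RNA from other cells cannot be told apart.

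**Figure D1:**
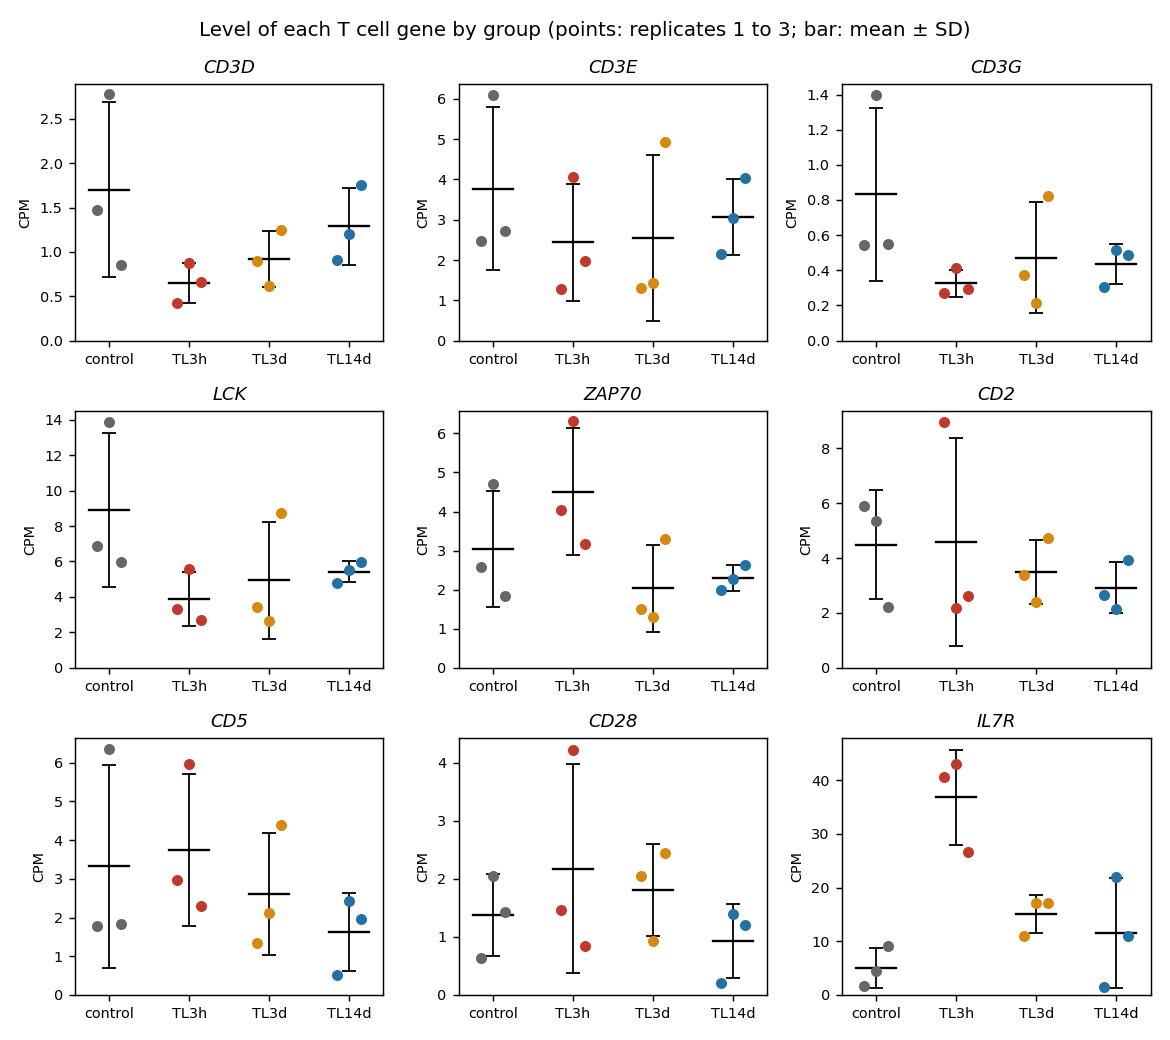
Level of each T cell gene (CPM, linear axis from 0) in the control, TL3h, TL3d, and TL14d groups. Colored points are the 3 libraries of a group, and black bars give the mean ± SD. IL7R stood between 26.7 and 43.1 CPM in the TL3h libraries, above all control libraries, and the CD3 genes and LCK were lowest on average at 3 hours.

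Among the CD3 chains, CD3D measured 1.47, 2.78, and 0.853 CPM in the control libraries and 0.423, 0.871, and 0.659 CPM in the TL3h libraries. The lowest control library and the highest TL3h library overlapped by a small margin. Later CD3D values were 0.899, 0.616, and 1.25 CPM at 3 days and 0.908, 1.20, and 1.76 CPM at 14 days, so that each 14-day library stood above each 3-hour library. At 3 hours the log2 fold change against control was -1.38 (SE 0.51, q = 0.0478, edgeR quasi-likelihood test with Benjamini-Hochberg adjustment). This call lay close to the threshold of 0.05 and rested on most libraries: q rose to 0.228 without control replicate 2, the highest control library, and the gene passed in 5 of 19 alternative settings.

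CD3G, the gamma chain, had the lowest counts of the CD3 genes. It measured 0.546, 1.40, and 0.552 CPM in the controls and 0.269, 0.415, and 0.293 CPM at 3 hours. Every TL3h library was below every control library. The log2 fold change was -1.35 (SE 0.58, edgeR adjusted p = 0.0848). CD3G was 0.375, 0.216, and 0.825 CPM at 3 days and 0.303, 0.516, and 0.488 CPM at 14 days, when all 3 libraries again lay below the controls. The 14-day difference of -0.93 on the log2 scale did not pass the test (SE 0.57, edgeR q = 0.593).

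CD3E, the epsilon chain, spread more widely between libraries of a group. Its control libraries measured 2.47, 6.10, and 2.73 CPM and its TL3h libraries 1.27, 4.07, and 1.98 CPM. It was 1.3, 1.42, and 4.92 CPM at 3 days and 2.15, 3.04, and 4.04 CPM at 14 days. The groups overlapped at each time. The log2 fold changes against control were -0.63, -0.57, and -0.29 in time order (SE 0.63, 0.62, and 0.62).

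LCK, the kinase that starts signalling from the receptor, followed the CD3 genes. The control libraries gave 6.86, 13.9, and 5.97 CPM and the TL3h libraries 3.34, 5.60, and 2.67 CPM, without overlap. At 3 days LCK was 3.42, 2.65, and 8.74 CPM, and at 14 days it was 4.77, 5.54, and 5.96 CPM, the last library just below the lowest control. The log2 fold change at 3 hours was -1.20 (SE 0.49, edgeR q = 0.0721). With DESeq2's own test, LCK passed at 3 hours (q = 0.0306). It passed in 5 of 19 alternative settings, and without control replicate 2 the edgeR q was 0.294.

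ZAP70, the kinase that acts directly after LCK, did not share this pattern at 3 hours. It measured 2.59, 4.70, and 1.83 CPM in the controls, 4.04, 6.31, and 3.18 CPM at 3 hours, 1.5, 1.29, and 3.30 CPM at 3 days, and 1.98, 2.28, and 2.64 CPM at 14 days. The 3-hour libraries overlapped the controls from above, and each of them exceeded each 14-day library. ZAP70 was 0.57 higher than control on the log2 scale at 3 hours (SE 0.46, edgeR q = 0.345). From 3 hours to 3 days it differed by -1.15 (SE 0.46, edgeR q = 0.0751). This difference passed in 2 of 19 alternative settings, with the lowest q without TL3d replicate 3 (edgeR q = 0.0224).

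CD2 and CD5, surface receptors that tune adhesion and signal strength, varied widely between libraries of the same group. CD2 measured 5.89, 5.35, and 2.23 CPM in the controls and 8.96, 2.16, and 2.63 CPM at 3 hours, where a single library held the highest value of all 12. It was 3.37, 2.40, and 4.72 CPM at 3 days and 2.66, 2.15, and 3.94 CPM at 14 days. The 3-hour log2 fold change of CD2 was 0.03 (SE 0.57) and changed sign without TMM, to -0.49. CD5 measured 1.78, 6.35, and 1.83 CPM in the controls, 2.96, 5.97, and 2.30 CPM at 3 hours, 1.35, 2.12, and 4.38 CPM at 3 days, and 0.504, 2.42, and 1.95 CPM at 14 days. All groups overlapped for both genes. The lowest CD5 estimate was at 14 days, at -1.03 on the log2 scale (SE 0.72, edgeR q = 0.64).

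CD28, the costimulatory receptor for CD80 and CD86, was among the least abundant of the 9. It measured 0.641, 2.05, and 1.43 CPM in the controls and 1.46, 4.23, and 0.841 CPM at 3 hours. At 3 days it was 2.05, 0.924, and 2.45 CPM and at 14 days 0.202, 1.39, and 1.20 CPM. Each group overlapped the others. Its log2 fold changes against control were 0.66 at 3 hours, 0.40 at 3 days, and -0.55 at 14 days (SE 0.78, 0.77, and 0.78).

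IL7R was the one gene of the 9 that was called higher. It measured 1.64, 4.48, and 9.08 CPM in the controls and 40.6, 43.1, and 26.7 CPM at 3 hours, so that the lowest TL3h library was above the highest control. At 3 days its level was 11, 17.1, and 17.1 CPM, between the 3-hour and the control libraries and overlapping neither group. At 14 days the libraries parted widely, at 1.45, 22.0, and 11 CPM. The 3-hour log2 fold change was 2.86 (SE 0.84, edgeR q = 0.0183). It kept its sign in 19 of 19 alternative settings and passed in 17 of them; without control replicate 1 q was 0.059 and without control replicate 2 it was 0.0636. The 3-day difference was 1.57 (SE 0.80, q = 0.184) and the 14-day difference 1.18 (SE 0.80, q = 0.626), neither past the threshold in edgeR.

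**Figure D2:**
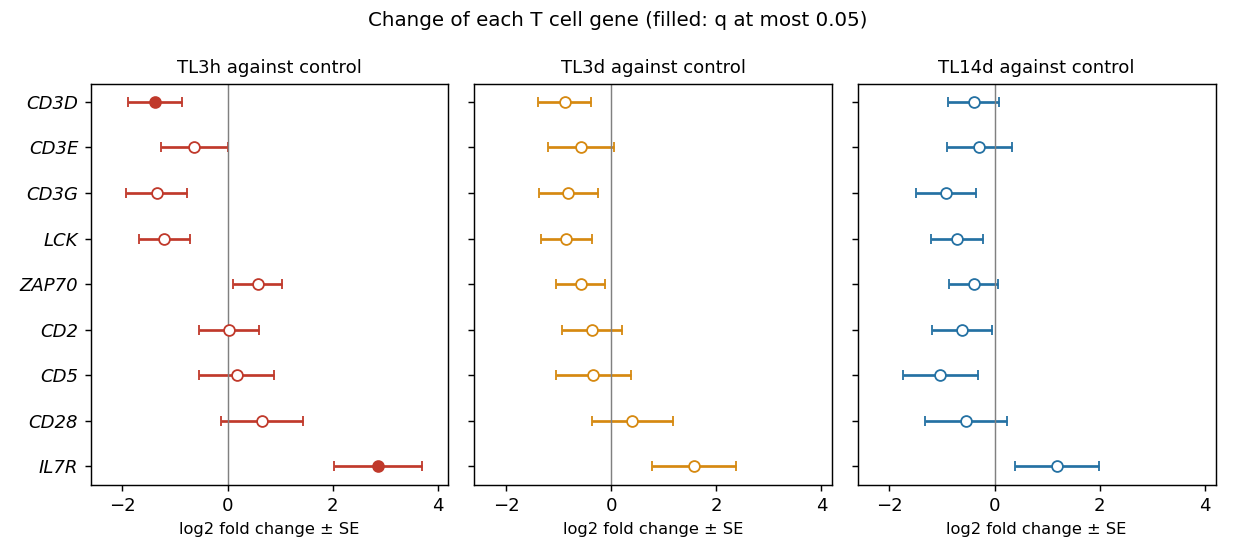
Log2 fold change against control of each T cell gene at each time after surgery (3 panels), from the edgeR fit. Bars are ± 1 SE, and filled points have q at most 0.05. The filled points are CD3D (-1.38) and IL7R (2.86) at 3 hours.

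Counted over the 8 genes at 3 hours, 1 was called higher and 1 lower, beside 23.2% and 22.2% of all 14835 genes tested in the same comparison (45.4% in either direction). Complete separation from the controls was seen for 3 of the 8 (IL7R higher, CD3G and LCK lower), beside 57.3% of all genes. At an unadjusted p under 0.05, 4 of the 8 passed, beside 52.3% of all genes. The genes were called at shares no higher than the background. Their median log2 fold change was -0.30, against 0.02 over all genes, and the median SE was 0.60, against 0.29 over all genes. Without TMM the count was 4, with IL7R higher and CD3D, CD3G, and LCK lower; by DESeq2's test it was 3 and by limma-trend 1. Leaving out control replicate 1 or control replicate 2 left 0 calls. The shares of all genes called in these 5 settings were 51%, 50.8%, 46.3%, 34.9%, and 35.2%, in the same order.

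Against control at 3 days, edgeR called 0 of the 8 genes, beside 17.6% of all genes tested, and 0 had an unadjusted p under 0.05, beside 36.2% of all genes. DESeq2 and limma-trend also called 0. Only IL7R was separated from the controls, beside 45.5% of all genes. Of the 8 log2 fold changes, 6 were below 0, beside 50.1% of all genes, with a median of -0.46. Without TL3d replicate 3, which was the highest TL3d library for most of these genes, LCK passed (q = 0.0475). At 14 days edgeR called 0 of the 8 genes and 0% of all genes, with 0 of the 8 and 10.4% of all genes at an unadjusted p under 0.05 and 0 calls of the 8 by DESeq2 and limma-trend. CD3G and LCK were separated from the controls, beside 11.1% of all genes, and 7 of the 8 estimates were below 0, beside 47.8% of all genes, with a median of -0.59.

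Between the times after surgery, edgeR called 0 of the 8 genes in each of the 3 comparisons, with 0 at an unadjusted p under 0.05 and 0 calls by DESeq2 and by limma-trend. All genes gave 37.3% of calls from 3 hours to 3 days, 45.3% from 3 hours to 14 days, and 2.24% from 3 days to 14 days, and at an unadjusted p under 0.05 the shares were 47.5%, 52.8%, and 22.6%. Every later library had less IL7R than every 3-hour library. It differed by -1.29 on the log2 scale at 3 days (SE 0.79, q = 0.226) and by -1.68 at 14 days (SE 0.80, q = 0.113) in edgeR. The first difference passed when just the 6 libraries compared were fitted (q = 0.0126), and the second passed without TL14d replicate 2 (q = 0.0432) and with a replicate block (q = 0.047). IL7R was the lone gene of the 8 to separate from 3 hours to 3 days, beside 54.7% of all genes. From 3 hours to 14 days, IL7R and CD3D separated in opposite directions, beside 52.8% of all genes, and from 3 days to 14 days none did, beside 27.4%.

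The T cell genes also differed between libraries of 1 group, and several of them did so together. The deviations of CD3D, CD3E, CD3G, and LCK from their group means correlated with r between 0.79 and 0.93 in 6 pairs over the 12 libraries. With ZAP70 and CD5 added, the 15 pairs gave r between 0.72 and 0.98, the highest for LCK and ZAP70. IL7R gave 0.08 to 0.31 with the first 4 genes but 0.64 with CD5 and 0.74 with CD28. With the same 4 genes CD2 gave -0.03 to 0.28 and CD28 gave 0.56 to 0.70. These are descriptions over libraries that share depth and composition, given without a test.

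Some libraries were the highest or lowest of their group for most of the 9 genes. Whether they carried the correlations was not tested. Control replicate 2 was the highest control for 7 of the 9 genes, TL3h replicate 2 the highest at 3 hours for 8, and TL3d replicate 3 the highest at 3 days for 8. TL14d replicate 1 was the lowest 14-day library for 8 of the 9. Its PTPRC level, 7.73 CPM, was also the lowest of all 12 libraries for this leukocyte gene.

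**Figure D3:**
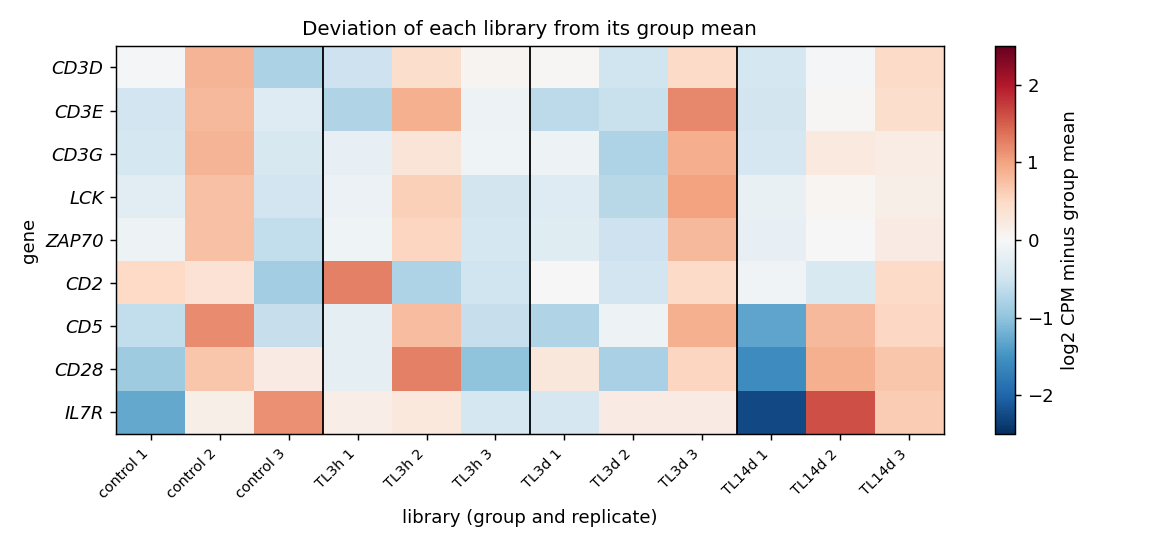
Deviation of each library from its group mean (log2 CPM) for the 9 T cell genes, with groups divided by black lines. Control replicate 2, TL3h replicate 2, and TL3d replicate 3 are red for most genes, and TL14d replicate 1 is blue for CD5, CD28, and IL7R.

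Per length, as FPKM, CD3E was the most abundant of the 9 genes in the controls (5.32 ± 2.99, SD, n = 3), followed by LCK (4.17), CD3D (3.79), CD2 (2.89), CD5 (1.21), ZAP70 (1.14), IL7R (1.04), CD3G (0.657), and CD28 (0.493). Each gene in this order overlapped its neighbor across libraries. At 3 hours IL7R moved from seventh to first, at 5.53 ± 1.23 FPKM (SD, n = 3), and did not overlap CD3E, the next gene (2.45 ± 1.42). At 3 days CD3E and IL7R overlapped at the top, with 3.55 and 3.18 FPKM. At 14 days CD3E was again first (4.35), and CD2 (1.87) and ZAP70 (0.865) were the one pair of neighbors without overlap.

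Transcript counts were given for all 9 genes. CD3D, CD3E, LCK, and IL7R each had 1 annotated transcript. The longer CD2 transcript, of 1557 bases, held 73.2% to 94.7% of the gene's counts in the control, TL3h, and TL3d libraries and 100% in the 3 TL14d libraries, where the 1441-base transcript was at 0. The 2601-base transcript of CD28 held 91.2% or more in each library. The 2396-base transcript of ZAP70 ranged from 42.2% to 100% and the 2252-base transcript of CD5 from 50.1% to 100%. The 1258-base transcript of CD3G ranged from 0.0423% to 100%, the lowest in TL14d replicate 1, where the gene had 9 counts. No test was made on these shares, which rest on few counts and on how the authors' program divided reads between transcripts.

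PTPRC, also known as CD45, is a membrane phosphatase of all white blood cells that activates LCK and is not a part of the CD3 complex. PTPRC measured 13.1, 28.5, and 28.8 CPM in the controls, 167, 190, and 92.5 CPM at 3 hours, 119, 144, and 143 CPM at 3 days, and 7.73, 52.0, and 32.3 CPM at 14 days. It rose by 2.68 on the log2 scale at 3 hours (SE 0.59, edgeR q = 0.00466) and by 2.53 at 3 days (SE 0.59, q = 0.0217; without control replicate 1, q = 0.0789). Apart from IL7R at 3 hours, none of the 9 T cell genes was called higher at either time. Of all genes, 23.2% were called higher at 3 hours and 10.6% at 3 days.

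The ratio of T cell counts to PTPRC counts within a library does not depend on scaling between libraries; it was chosen after its values were seen and is given with no test. The 3 CD3 genes together had 344, 362, and 144 counts per 1000 PTPRC counts in the controls. At 3 hours they had 11.7, 28.3, and 31.8, and at 3 days 21.5, 15.8, and 48.8. At both times every library was below every control. PTPRC, the denominator, went from a mean of 23.4 CPM in the controls to 150 CPM at 3 hours and 136 CPM at 3 days. A gene at an unchanged level would therefore also give a lower ratio, and how many of all genes would do so was not tested. At 14 days the ratio was 438, 91.8, and 194, a spread wider than that of the controls. LCK gave 525, 487, and 207 counts per 1000 PTPRC counts in the controls, 20.1, 29.4, and 28.9 at 3 hours, 28.6, 18.4, and 61.0 at 3 days, and 619, 107, and 184 at 14 days. Both ratios were below every control early after surgery and scattered above and below the controls at 14 days, when 1 of 3 libraries for the CD3 genes and 0 of 3 for LCK lay within the control range.

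IL7R counts per 100 CD3 counts ran the other way. The controls gave 36.5, 43.5, and 219, the TL3h libraries 2080, 799, and 908, the TL3d libraries 428, 751, and 244, and the TL14d libraries 42.8, 460, and 175. No TL3h or TL3d library reached down to the control range.

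**Figure D4:**
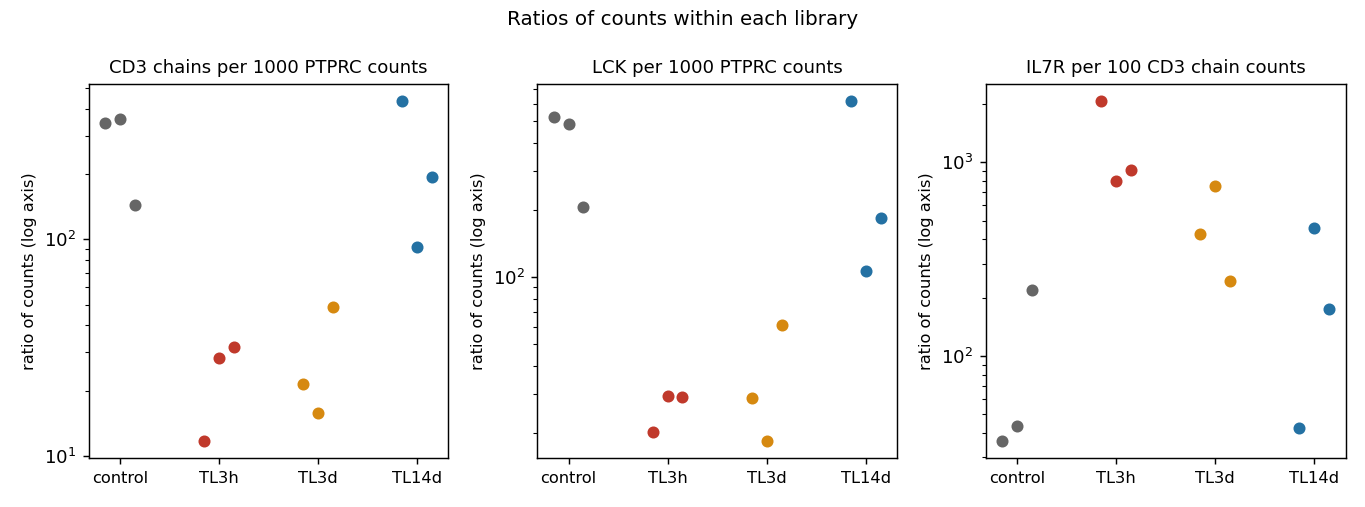
Counts of CD3D, CD3E, and CD3G together and of LCK per 1000 PTPRC counts, and IL7R counts per 100 CD3 counts, in each library (log axes). Points are single libraries. The CD3 and LCK ratios are below all controls at 3 hours and 3 days, and the IL7R ratio is above all controls at both times.

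Markers of other cell types were measured in the same libraries. For comparison, 23.2% of all genes were called higher and 22.2% lower at 3 hours, and 10.6% and 7% at 3 days. The summed level of 9 neutrophil markers was 6.48 to 102 CPM in the controls, 1160 to 3070 CPM at 3 hours, 161 to 596 CPM at 3 days, and 7.33 to 108 CPM at 14 days, and 8 of the 8 that were tested were higher at 3 hours and 2 of 8 at 3 days. Macrophage markers (7 genes) summed to 72.7 to 606 CPM in the controls, 648 to 988 CPM at 3 hours, and 1300 to 2070 CPM at 3 days, with 2 of 7 and 4 of 7 higher. B cell markers, 8 genes, summed to 2.40 to 5.42, 6.18 to 16.1, and 31.5 to 35.6 CPM at the same times, with 3 of 8 higher and 1 lower at 3 hours and 2 higher at 3 days. Of 5 NK cell markers, 4 had log2 fold changes below 0 at 3 hours (median -1.49 over the 5) and at 3 days (median -1.45); NCR3 was called lower at 3 hours (without control replicate 1, q = 0.0905 in edgeR). Their sum was 14.6 to 75.7, 62.8 to 133, and 55.5 to 97.3 CPM, and most of it at 3 hours and 3 days was FCER1G, which myeloid cells also express and which was higher at both times (log2 fold changes 3.31 and 2.99, edgeR q = 0.00776 and 0.0326; at 3 days without control replicate 2, q = 0.109). Dendritic cell markers, 7 genes, summed to 3.49 to 11.8 CPM in the controls, 16.1 to 25.3 CPM at 3 hours, and 38.4 to 50 CPM at 3 days, with 2 of the 6 tested higher and 1 lower at 3 hours and 4 higher at 3 days.

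Plasma cell markers (7 genes) summed to 1130 to 3080, 3190 to 4270, and 1270 to 2680 CPM in the control, TL3h, and TL3d libraries, with 2 of 7 and 1 of 7 higher. Mast cell markers (5 genes) summed to 99.6 to 216, 16.1 to 44.1, and 28 to 43.6 CPM, although 3 of the 4 tested were higher and 1 lower at 3 hours and 2 higher and 1 lower at 3 days. Blood vessel endothelium markers (5 genes) summed to 63.7 to 275, 606 to 1210, and 294 to 548 CPM, with 2 of 5 higher at 3 hours and 0 called at 3 days. Fibroblast markers (6 genes) summed to 12200 to 76300, 105000 to 126000, and 1330 to 64700 CPM, and 0 of 6 were called by edgeR at either time, with 0 at an unadjusted p under 0.05. Of the 29 marker genes called at 3 hours in either direction, epithelium included, 18 were still called without control replicate 2. Of the 18 called at 3 days, 2 were still called without control replicate 1, control replicate 2, or TL3d replicate 2, 3 without TL3d replicate 1, and 11 without TL3d replicate 3. The part of these cells in the levels of IL7R, CD2, or ZAP70, which some of them also express, was not tested.

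A list of genes of the receptor complex, co-receptors, and their regulators had 7 members in the table beside the CD3 chains, and 6 were tested. At 3 hours 1 of the 6 was called (PTPRC), beside 45.4% of all genes, and at 3 days 2 were (PTPRC and CD8B), beside 17.6%. CD247, the zeta chain through which the receptor signals, was 1.45, 3.60, and 1.18 CPM in the controls and 0.538, 2.32, and 0.768 CPM at 3 hours, a log2 difference of -0.78 (SE 0.76, edgeR q = 0.438). CD8B, the beta chain of the co-receptor of cytotoxic T cells, measured 0.403, 1.0, and 0.376 CPM in the controls, 0.192, 0.664, and 0.329 CPM at 3 hours, 14.7, 16.8, and 11.1 CPM at 3 days, and 0.134, 7.25, and 7.78 CPM at 14 days. It was higher at 3 days by 4.57 on the log2 scale (SE 1.09, edgeR q = 0.023; without control replicate 1, q = 0.0858). Whether the row named CD8B holds reads of that gene alone was not tested, so its values are those of the row. Its partner CD8A, which can also form the co-receptor without CD8B, went from 2.28, 6.73, and 1.25 CPM in the controls to 0.450, 0.216, and 1.54 CPM at 3 days, a log2 difference of -2.21 (SE 0.84, edgeR q = 0.088). CD8B counts per 100 CD8A counts were 17.7, 14.9, and 30.0 in the controls and 3280, 7800, and 722 at 3 days. They were 16.1, 38.1, and 40.9 at 3 hours and 26.7, 1670, and 569 at 14 days. CD247 and CD8A were named after their values were seen, as partners of the genes above.

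Across 8 lists of other T cell pathway genes, 121 of 136 were in the table and 106 were tested. At 3 hours 32 were higher and 12 lower, beside 23.2% and 22.2% of all genes called in those directions. Without control replicate 1 the counts were 20 and 6, while 34.9% of all genes were called, of which 51.5% were higher. At 3 days 22 were higher and 4 lower, beside 10.6% and 7% of all genes. The 3-day count went from 26 to 2 without control replicate 1, TL3d replicate 1, or TL3d replicate 2, to 3 without control replicate 2, and to 41 without TL14d replicate 1. The share of all genes called went the same way, from 17.6% to 3.25%, 2.97%, 2.37%, 2.46%, and 25%, in the same order. At 14 days edgeR called 0 of the 106 genes, with 15 at an unadjusted p under 0.05 (10.4% of all genes) and 5 calls by DESeq2 (2.47% of all genes). Without TL14d replicate 1 edgeR called 10 (4.74% of all genes), and without TL14d replicate 3 it called 1 (0.00663% of all genes).

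**Figure D5:**
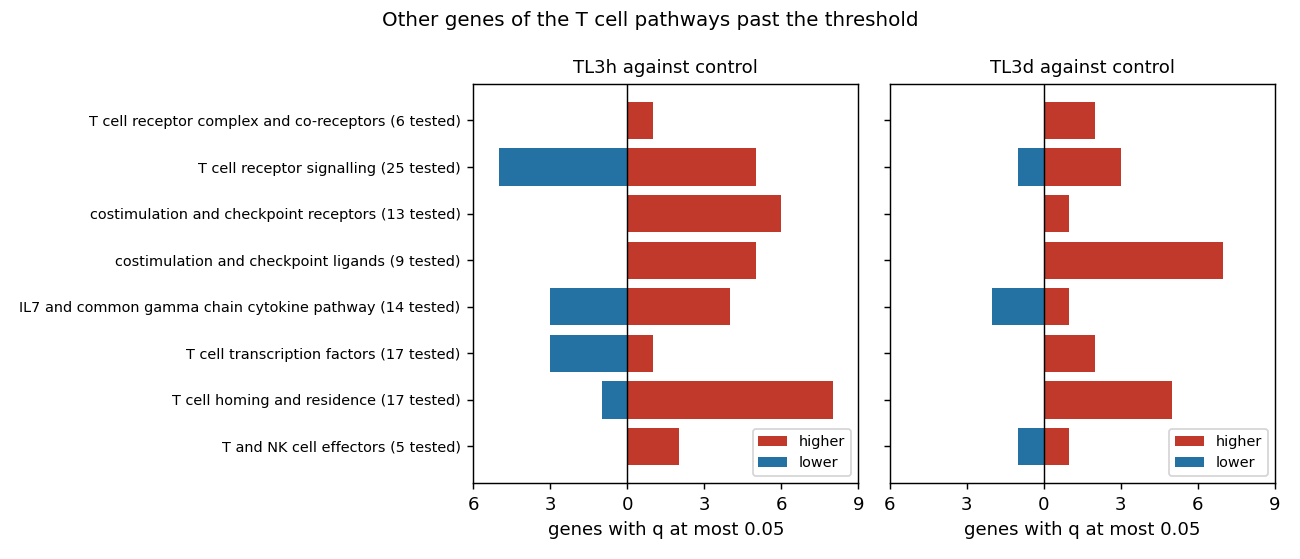
Number of genes with q at most 0.05 in each list of other T cell pathway genes, at 3 hours and 3 days against control. Red bars to the right count genes that were higher and blue bars to the left genes that were lower. Calls among receptors and ligands of costimulation and among homing genes were mostly higher, and receptor signalling genes were called in both directions at 3 hours.

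Of 25 signalling genes below the receptor, 5 were higher and 5 lower at 3 hours, close to the shares of all genes (23.2% and 22.2%). RASGRP1, which activates RAS after receptor engagement, fell by 3.13 on the log2 scale (21.2 ± 12 to 2.42 ± 0.289 CPM, SD, n = 3; SE 0.49, q = 0.000696 in edgeR). VAV1, an exchange factor of leukocytes, rose by 1.86 (SE 0.36, edgeR q = 0.00235).

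Costimulation and checkpoint receptors were higher for 6 of 13 genes at 3 hours (23.2% of all genes) and for 1 at 3 days (10.6% of all genes), and none was lower. The least stable of the 6 calls passed in 6 of 19 alternative settings. Without control replicate 1 the 3-day call was lost (edgeR q = 0.108). SLAMF1, an adhesion and signalling receptor of activated lymphocytes and myeloid cells, had the lowest p and rose by 6.29 on the log2 scale (SE 1.05, edgeR q = 0.000988), from a mean of 2.22 to 173 CPM, while CD28 did not pass. Antigen-presenting cells carry some of the ligands for such receptors. Of 9 ligand genes tested, 5 were higher at 3 hours (23.2% of all genes) and 7 at 3 days (10.6% of all genes). CD274, the ligand of the inhibitory receptor PD-1, rose by 4.99 at 3 hours (SE 1.03, edgeR q = 0.00322) and by 3.91 at 3 days (SE 0.98, q = 0.027; without control replicate 1, q = 0.0947).

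Around IL7R, 4 of 14 genes of the IL7 and common gamma chain pathway were higher and 3 lower at 3 hours, near the 23.2% and 22.2% of all genes. IL2RG, the common gamma chain that pairs with IL7R, rose by 3.30 on the log2 scale (SE 0.69, edgeR q = 0.00326). TSLP, an epithelial cytokine that signals through IL7R and CRLF2, rose by 3.60 (0.799 to 9.69 CPM, SE 0.51, q = 0.00038 in edgeR), whereas IL7 fell by 0.86 (5.16 to 2.83 CPM, SE 0.28, q = 0.0277 in edgeR; without control replicate 1, q = 0.0871). CISH and SOCS1, feedback inhibitors induced by cytokine receptors, rose by 3.18 and 2.84. IL7 was named outside the rule, as the ligand of IL7R. At 3 days 1 of the 14 genes was higher (CRLF2, 3.94, edgeR q = 0.0211; without control replicate 1, q = 0.0764) and 2 were lower, beside 10.6% and 7% of all genes. One of the lower genes was BCL2, a survival gene that IL7 signalling maintains, which fell by 3.20 (SE 0.70, edgeR q = 0.0181; without TL3d replicate 2, q = 0.0722).

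Transcription factors of T cells gave 1 higher and 3 lower calls of 17 at 3 hours, beside 23.2% and 22.2% of all genes, and 2 higher calls at 3 days, beside 10.6%. ETS1, which is also expressed in endothelium, rose by 2.02 on the log2 scale at 3 hours (SE 0.23, edgeR q = 0.000136). TCF7, a factor of naive and memory T cells that epithelium also uses, fell by 1.84 (4.65 to 1.29 CPM, SE 0.54, q = 0.0181 in edgeR; without control replicate 2, q = 0.061) and then stood above its 3-hour level at 3 days by 3.09 (SE 0.56, q = 0.002).

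Homing and residence genes were higher for 8 of 17 at 3 hours, with 1 lower, and for 5 at 3 days, beside 23.2% higher and 22.2% lower calls of all genes at 3 hours and 10.6% higher at 3 days. CXCL10, a chemokine that attracts activated T cells, rose by 2.77 on the log2 scale at 3 days (SE 0.66, edgeR q = 0.0232; without control replicate 1, q = 0.071). Of 15 effector genes of T and NK cells in the table, 5 passed the filter on low counts. Of these, 2 were higher at 3 hours, and 1 was higher and 1 lower at 3 days, beside the shares of all genes given above. CST7, which encodes the protease inhibitor cystatin F, rose by 1.87 at 3 hours (SE 0.49, edgeR q = 0.0104) and by 2.08 at 3 days (SE 0.49, edgeR q = 0.0222; without control replicate 1, q = 0.0824). PRF1, which encodes the pore-forming protein perforin, rose by 1.73 at 3 hours (SE 0.45, edgeR q = 0.0102) and fell by 1.60 below control at 3 days (SE 0.46, edgeR q = 0.0411; without control replicate 2, q = 0.142), from 1.06 to 0.347 CPM.

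Outside the 9, 10 genes followed the mean standardized level of the 8 genes found by name most closely over the 12 libraries. Their Pearson r ran from 0.818 to 0.867. These were MYOM1 (0.867), a guanylate-binding protein 4-like gene, GPR174, ZBED3, CXCR6 (0.847), AMN1, NLRC3, an unannotated gene, THEMIS (0.82), and ENO3. They were chosen for this likeness out of all genes tested, and the values are a description. GPR174, CXCR6, and THEMIS are known from lymphocytes, and MYOM1 and ENO3 from muscle.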

How the data were processed

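Conjunctiva was sequenced as stranded mRNA libraries. Paired-end reads of 150 bp were aligned to OryCun2.0 with STAR (2.6.0c per the submitters' processing notes), and values per gene and transcript were made in GeneData Profiler Genome by the authors. The authors deposited estimated counts, which need not be whole and were not scaled, and FPKM values, scaled for length and depth. How reads with several placements were shared, and whether counting used strand, was not given in the sources used here. Of the 12 library values of a T cell gene, up to 66.7% (CD3G) were not whole numbers.

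The estimated counts were rounded, and the test planned for counts was kept. With edgeR 4.0.16 in R 4.3.3, filterByExpr (minimum count 10, minimum total 15) kept 14835 genes, and 1 quasi-likelihood fit over the 12 libraries with TMM scaling gave 6 comparisons. Benjamini-Hochberg q at or below 0.05 over all tested genes was called. Fold changes used a prior count of 0.125. FPKM was used only to compare levels between genes. Alternatives were DESeq2 1.42.0 size factors and test, library size only, no filter, limma-trend (limma 3.58.1, prior count 2), a replicate block, the 6 libraries compared, and each library left out. Fits were tested on simulated data. Libraries were checked for copies, and none was found.

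All 9 genes were named in each comparison, and, of the at most 4 called genes a list and comparison with the lowest p, a part chosen after their values were seen; some genes of the lists are not reported here. The 9 genes and the lists were chosen with earlier results of these data known. The study describes the operated groups as separate eyes; the labels do not say how the control libraries relate to them.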

Additional observations from a re-analysis of the deposited data

Results flagged for a closer look

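Groups of 3 libraries were not tested for outlying libraries. None of the 9 T cell genes differed between times after surgery at q at most 0.05 in edgeR. Among the other listed genes named above, the following differences between times passed, which tests whether 2 effects against the same controls differed.

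From 3 hours to 3 days, SLAMF1 changed by -5.10 on the log2 scale, PRF1 by -3.33, BCL2 by -2.67, SOCS1 by -2.50, CISH by -2.35, TSLP by -2.32, EPCAM by -1.48, and ETS1 by -0.86. In the same interval CD8B changed by 5.16, TCF7 by 3.09, CRLF2 by 3.04, CXCL10 by 2.58, and KRT13 by 2.13.

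From 3 hours to 14 days, SLAMF1 changed by -6.54, SOCS1 by -3.63, TSLP by -3.42, CISH by -2.71, IL2RG by -2.53, CD274 by -2.52, PTPRC by -2.29, FCER1G by -2.25, PRF1 by -2.02, ETS1 by -1.88, CST7 by -1.44, VAV1 by -1.23, and EPCAM by -1.02. TCF7 changed by 4.04, CD8B by 3.68, RASGRP1 by 2.30, KRT13 by 1.99, and IL7 by 0.84. From 3 days to 14 days, CXCL10 changed by -3.39, VAV1 by -1.84, and ETS1 by -1.02. Among 19 alternative settings, CD8B from 3 hours to 14 days passed in 14 (q = 0.119 by limma-trend), KRT13 in 17, VAV1 in 15, IL7 in 14, CST7 in 13, FCER1G in 11, CD274 in 5, and IL2RG in 18. CRLF2 from 3 hours to 3 days passed in 16 and ETS1 and KRT13 in 18 each, and from 3 days to 14 days VAV1 passed in 10, CXCL10 in 7, and ETS1 in 4. The other differences listed passed in 19 of 19. Whether the row named CD8B holds reads of that gene alone was not tested.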

How the results depend on the processing

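Of the 8 T cell genes, 2 were called at 3 hours; DESeq2 size factors also gave 2, library size only 4, DESeq2's test 3, and no filter, limma-trend, the replicate block, and the 6 libraries compared gave 1 each, and leaving out 1 library gave 0 to 3. At 3 days leaving out 1 library gave 0 to 1. From 3 hours to 3 days the 6 libraries compared gave 1, and from 3 hours to 14 days library size only and the replicate block gave 1 each, with 0 to 1 on leaving out 1 library. Of the other pathway genes, 44 were called at 3 hours, 26 at 3 days (41 by DESeq2), 0 at 14 days (5 by DESeq2), and 28 from 3 hours to 3 days, and leaving out 1 library gave 26 to 50, 2 to 41, 0 to 10, and 17 to 32. The share of all genes called was, in the same order, 45.4%, 17.6% (30.1% by DESeq2), 0% (2.47% by DESeq2), and 37.3%, with 34.9% to 48.1%, 2.37% to 25%, 0% to 4.74%, and 26.1% to 41.2% on leaving out 1 library. From 3 days to 14 days 4 were called, with 22 by DESeq2, 2 under the replicate block, 0 with the 6 libraries compared, and 0 to 12 on leaving out 1 library, beside 2.24%, 12.5%, 1.94%, 0.105%, and 0% to 3.87% of all genes. The cause was not tested.

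The following estimates changed sign; of these only NFATC2 at 3 hours was called (0.50, q = 0.0325 in edgeR). CD2 at 3 hours was -0.03 with DESeq2 size factors and with DESeq2, -0.49 with library size only, and -0.15 with limma-trend and under the replicate block. Library size only gave -0.35 for CD5 at 3 hours, 0.08 for CD2 and 0.21 for CD28 from 3 hours to 3 days, and 0 for NFATC2 at 3 hours. Limma-trend gave -0.05 for CD3E from 3 hours to 3 days and 0.04 for CD3G from 3 days to 14 days, and the replicate block gave 0.04 for CD28 from 3 hours to 3 days. Leaving out 1 library gave ranges that crossed 0 at 3 hours for CD2 (-0.96 to 0.31), CD5 (-0.39 to 1.05), and CD28 (-0.30 to 1.07); at 3 days for CD5 (-0.93 to 0.53); and at 14 days for CD3D (-0.73 to 0.15), CD3E (-0.53 to 0.24), ZAP70 (-0.67 to 0.06), and CD247 (-0.76 to 0.19). From 3 hours to 3 days they crossed 0 for CD3E (-0.84 to 0.68), CD3G (-0.13 to 0.88), CD2 (-0.69 to 0.58), CD5 (-1.10 to 0.03), LCK (-0.35 to 0.75), and CD28 (-0.62 to 0.69), and from 3 hours to 14 days for CD2 (-0.95 to 0.32). From 3 days to 14 days they did so for CD3E (-0.04 to 1.18), CD3G (-0.45 to 0.55), CD2 (-0.54 to 0.01), LCK (-0.16 to 0.83), ZAP70 (-0.06 to 0.72), and IL7R (-1.27 to 0.13).

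Libraries of 1 replicate number shared no stated origin, and their deviations correlated with r between -0.15 and 0.48, so the replicate block was not used as the main result. The T cell genes had 6 to 1055 counts per library, which limits small differences.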
